A study of Mus musculus with 16 samples.

Results

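The genes described here are 10 that encode the slow fibre forms of contractile, Z-disc and calcium-handling proteins of skeletal muscle: Myh7, Myl2, Myl3, Tnni1, Tnnc1, Tnnt1, Tpm3, Myoz2, Atp2a2 and Casq2. Every probe whose gene symbol in the deposited array table equals one of these names was taken, which gave 14 of 25697 probes. Tpm3 has 4 of these probes, Atp2a2 has 2, and the other genes have 1 each. All 14 passed the detection filter, which left 14763 probes in the series. The rule uses gene names alone, but the genes were picked with earlier results of these data known.

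The arrays hold RNA from hamstring muscle of female mice, which the extraction notes call whole hindlimb muscle, taken on day 2. Mice had a spinal cord injury (SCI) between vertebrae T12 and T13 or a sham operation, and the muscle was injected with cardiotoxin (CDTX), a cobra venom peptide that lyses fibres, or with saline. The groups are SCI+CDTX, the only one in which the design text says heterotopic bone forms, SCI+Saline, Sham+CDTX and Sham+Saline, with 4 arrays each. All mice had an operation and an injection. Strain and age are not given in the sources used here, and the labels do not say whether each number is a separate animal beyond calling it a mouse, so p-values measure the spread between these arrays.

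SCI+CDTX 2 was left out of the final analysis by the authors, per the labels, and it is left out of the fits here unless stated, so SCI+CDTX has n = 3 and the other groups n = 4. Mean raw intensity was 230.5 to 277 on the Sham+Saline arrays and 319.9 to 373.1 on the others, and 11114 to 13694 probes were detected per array. By the array names, all SCI arrays lie on 1 slide and all sham arrays on another, and within each slide CDTX and saline arrays hold different positions. Slide and surgery therefore cannot be told apart, and neither can position and injection. SCI+CDTX 2 also stood apart by a probe difference score, the first component of the differences between probes of the same gene over 2780 genes. That score was 0.35 to 0.39 on the Sham+CDTX arrays and 0.28 on SCI+CDTX 2, against -0.26 to -0.07 on the other 11 arrays.

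Skeletal muscle builds its sarcomeres from parallel sets of gene products, one used mainly in slow, oxidative fibres and another in fast fibres. Myosin heavy and light chains form the thick filament, troponin and tropomyosin make the thin filament respond to calcium, and the sarcoplasmic reticulum pump and calsequestrin take up and store that calcium. Most of the slow forms are shared with heart muscle. Mouse hamstring is largely a fast muscle, so slow fibres are a minority of its fibres. In whole muscle RNA, fewer slow fibres and less RNA per fibre cannot be told apart.

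The letters of the Tpm3 probes are shown because the 4 probes of this gene moved in opposite directions, and that of Myl2 because it had the lowest fold change of the members in SCI mice. Each is 50 bases, as the array table lists it, 5′ to 3′. Capitals mark the 46 bases that 3 of the Tpm3 probes share, so these 3 read 1 site. The fourth shares no run of more than 6 bases with them.
Myl2 ILMN_1260428: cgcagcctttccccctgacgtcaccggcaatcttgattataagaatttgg
Tpm3 ILMN_2426965: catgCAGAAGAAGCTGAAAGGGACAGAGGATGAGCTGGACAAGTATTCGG
Tpm3 ILMN_2426966: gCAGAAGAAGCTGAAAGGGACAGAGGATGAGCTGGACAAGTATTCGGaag
Tpm3 ILMN_2426967: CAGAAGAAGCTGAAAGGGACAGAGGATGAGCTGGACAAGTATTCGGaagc
Tpm3 ILMN_2444316: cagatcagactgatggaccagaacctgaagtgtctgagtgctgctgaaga
RefSeq places 2 starts of Tpm3 6870 bases apart, and the gene is known to make both a slow muscle tropomyosin and cytoskeletal tropomyosins of other cells. Which transcript each probe reads was not analysed here.

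Promoters are shown for the 3 genes with the lowest CDTX fold changes in sham mice, as the 250 bases before the RefSeq start, the only bases searched (GRCm38.p6, the start farthest upstream where there are several). They lie at chr3:123034988-123035237 on the minus strand for Myoz2, chr5:122092474-122092723 on the plus strand for Myl2, and chr9:110763428-110763677 on the plus strand for Myl3. Capitals mark matches, on either strand, to the E-box CANNTG, the MCAT motif CATTCC, the MEF2 motif (CTA and TAG with 4 bases between) and the CArG box.
Myoz2 promoter: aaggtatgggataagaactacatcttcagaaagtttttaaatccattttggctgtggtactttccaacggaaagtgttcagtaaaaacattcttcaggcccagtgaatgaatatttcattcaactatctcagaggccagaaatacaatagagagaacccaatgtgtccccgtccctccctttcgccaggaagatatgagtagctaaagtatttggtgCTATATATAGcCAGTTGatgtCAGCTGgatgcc
Myl2 promoter: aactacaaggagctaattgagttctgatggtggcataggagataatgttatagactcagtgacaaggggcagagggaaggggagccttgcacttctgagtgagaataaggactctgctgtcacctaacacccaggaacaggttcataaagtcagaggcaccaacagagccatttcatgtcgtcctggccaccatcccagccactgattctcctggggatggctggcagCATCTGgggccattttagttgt
Myl3 promoter: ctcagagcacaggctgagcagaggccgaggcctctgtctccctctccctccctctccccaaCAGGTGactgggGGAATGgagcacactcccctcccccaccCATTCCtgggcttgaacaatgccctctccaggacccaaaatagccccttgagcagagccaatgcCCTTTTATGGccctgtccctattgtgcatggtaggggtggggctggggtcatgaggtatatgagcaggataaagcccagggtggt
The Myoz2 window holds 2 E-boxes and 1 MEF2 match, the Myl2 window 1 E-box, and the Myl3 window 1 E-box, 2 MCAT matches and 1 CArG match, with no overlap between matches. Of 32851 RefSeq promoter windows of the same 250 bases before the start, 66.2% hold the E-box, 12.6% the MCAT motif, 3.2% the MEF2 motif and 1.47% the CArG box. The 13 windows of 9 of the 10 genes, all but Atp2a2, hold them in 13, 3, 1 and 1 cases. These are matches of letters and say nothing of binding.

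Most slow fibre gene probes were lower after CDTX in both surgeries, Myl2, Myl3 and Myoz2 among them, while Atp2a2 and Casq2 changed least and 1 Tpm3 probe rose. In sham mice, 12 of the 14 probes fell, 1 rose and 1 did not pass the test (limma, Benjamini-Hochberg adjusted p under 0.05 over all kept probes), with a median log2 fold change of -1.52. Of all probes, 48.9% passed in this comparison, 25.8% lower and 23.1% higher, with a median of -0.04. Under median scaling, which moved the median of all probes to 0.32, 7 members fell and 1 rose. The share of all probes called under that scaling is not given here. In SCI mice, 10 fell, 1 rose and 3 did not pass, with a median of -1.53. Of all probes, 42.9% passed there, 22.5% lower and 20.4% higher, with a median of -0.05. The groups did not overlap for 12 member probes in each comparison, against 45% of all probes in sham and 45.9% in SCI mice. Since 3 of the Tpm3 probes read 1 site, the counts were also taken by gene. By the brightest probe per gene, 8 of 10 genes fell and 1, Tpm3, rose in sham mice, and 7 fell and 1 rose in SCI mice. For Tpm3 that probe was ILMN_2444316, whose mean over all arrays was highest only through the CDTX arrays. In Sham+Saline and SCI+Saline it was the dimmest Tpm3 probe, with log2 means of 7.20 and 7.27 against 8.20 to 8.65. The rise of Tpm3 by gene therefore follows from the probe picked, while the 3 overlapping probes fell. Levels below are on the log2 scale after normalization. An offset of 16 was added before the log, which shrinks the fold changes of dim probes.

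**Figure D1:**
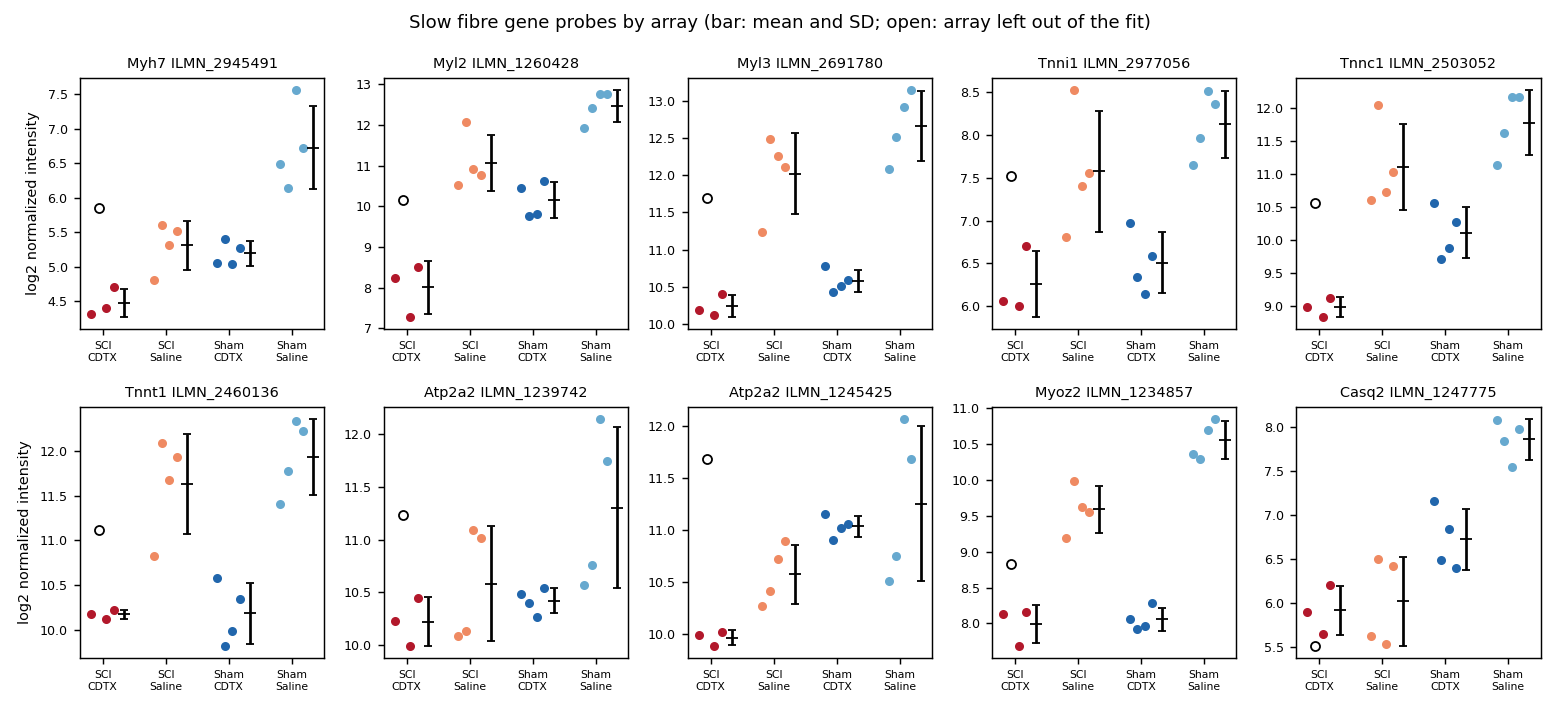
Log2 normalized intensity (y axis) of the 10 probes of members other than Tpm3, by group (x axis), with 1 point per array, bars for mean and SD, and an open circle for SCI+CDTX 2, which is outside the mean. Sham+Saline has the highest mean in each panel and SCI+CDTX the lowest, and the open circle lies above the other SCI+CDTX arrays in every panel but that of Casq2.

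Of the thick filament genes, Myl2 encodes the slow and ventricular regulatory light chain of myosin (chromosome 5, band 5qF). Its level was 11.94, 12.43, 12.76 and 12.77 on the Sham+Saline arrays and 10.46, 9.77, 9.80 and 10.63 on the Sham+CDTX arrays. The SCI+Saline arrays read 10.53, 12.08, 10.91 and 10.77, and the SCI+CDTX arrays 8.24, 7.27 and 8.50. No CDTX array reached the lowest saline array of its surgery. Myl2 fell, with log2 fold changes of -2.31 ± 0.32 (SE) in sham mice (adjusted p = 8.1e-06) and -3.07 ± 0.34 in SCI mice (adjusted p = 2.6e-06), which is 4.96-fold and 8.40-fold.

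Myl3, the slow and ventricular essential light chain (chromosome 9, 9qF3), moved alike but with tighter CDTX groups. It read 12.08, 12.51, 12.92 and 13.15 in Sham+Saline against 10.78, 10.43, 10.51 and 10.59 in Sham+CDTX. In SCI+Saline it read 11.24, 12.49, 12.26 and 12.11, against 10.19, 10.12 and 10.41 in SCI+CDTX. The groups were apart in both surgeries, with a fold change of -2.08 ± 0.24 in sham (adjusted p = 9.3e-07) and -1.78 ± 0.26 in SCI mice (adjusted p = 2.6e-05).

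Myh7, the slow and beta-cardiac myosin heavy chain (chromosome 14, 14qC3), gave a dim signal that was detected on 14 of 16 arrays and, in SCI+CDTX, on 1 of the 3 arrays of the fit and on SCI+CDTX 2. Sham+Saline arrays read 6.48, 6.14, 7.56 and 6.71, and Sham+CDTX arrays 5.05, 5.41, 5.04 and 5.27. SCI+Saline arrays read 4.80, 5.60, 5.31 and 5.52, and SCI+CDTX arrays 4.31, 4.40 and 4.71. The groups did not overlap in either surgery after normalization, though SCI+Saline 1 lay close to SCI+CDTX 4. Before normalization they overlapped, at raw intensities of 114.6 to 201.3 in Sham+Saline and 116.4 to 137.9 in Sham+CDTX. In SCI mice, SCI+Saline 1 read 110.5 raw and SCI+CDTX 4 read 112.3. Myh7 fell, with fold changes of -1.53 ± 0.24 in sham (adjusted p = 3.0e-05) and -0.84 ± 0.26 in SCI mice (adjusted p = 0.013). The call in SCI mice was lost without SCI+CDTX 1 (-0.74, adjusted p = 0.056), without SCI+CDTX 3 (-0.79, adjusted p = 0.052) and with all 16 arrays (-0.52, adjusted p = 0.21).

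The slow troponin genes encode the inhibitory (Tnni1, chromosome 1, 1qE4), calcium-binding (Tnnc1, chromosome 14, 14qB) and tropomyosin-binding (Tnnt1, chromosome 7, 7qA1) subunits, and all fell in both comparisons. Tnnc1 read 11.14, 11.63, 12.18 and 12.18 in Sham+Saline, 10.57, 9.72, 9.87 and 10.27 in Sham+CDTX, 10.61, 12.05, 10.73 and 11.02 in SCI+Saline, and 8.98, 8.82 and 9.12 in SCI+CDTX. SCI+Saline 2 lay more than 1 log2 unit above the rest of its group, and SCI+CDTX was the lowest group. Its fold change was -1.68 ± 0.28 in sham (adjusted p = 7.0e-05) and -2.13 ± 0.30 in SCI mice (adjusted p = 2.5e-05). For Tnnt1, Sham+Saline arrays lay at 11.41 to 12.34 and SCI+Saline arrays at 10.83 to 12.10, above Sham+CDTX at 9.81 to 10.58 and SCI+CDTX at 10.12 to 10.22. The fold change of Tnnt1 was -1.76 ± 0.25 in sham (adjusted p = 1.1e-05) and -1.46 ± 0.27 in SCI mice (adjusted p = 2.5e-04). Tnni1, at 7.65 to 8.51, 6.81 to 8.52, 6.14 to 6.97 and up to 6.70 in the same order, gave -1.61 ± 0.29 (adjusted p = 1.3e-04) and -1.32 ± 0.31 (adjusted p = 0.0021). Neither gene's groups overlapped within a surgery after normalization. Raw intensities of Tnni1 overlapped in sham mice, at 188.3 to 331.9 after saline and 178.6 to 227.6 after CDTX. In SCI mice, SCI+Saline 1 read 176.9 raw for Tnni1, below SCI+CDTX 4 at 208.1. Tnnc1 overlapped in sham mice too, with Sham+Saline 1 at 1628.7 raw and Sham+CDTX 1 at 1722.6.

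The 4 Tpm3 probes (chromosome 3, 3qF1) did not agree in sign. ILMN_2444316 read 6.97, 7.04, 7.18 and 7.61 in Sham+Saline and 9.66, 9.41, 9.81 and 9.92 in Sham+CDTX. In SCI mice it read 6.67, 7.60, 6.89 and 7.92 after saline and 9.49, 9.51 and 9.43 after CDTX. It was the only member probe that rose, by 2.50 ± 0.22 in sham (adjusted p = 6.9e-08) and 2.20 ± 0.24 in SCI mice (adjusted p = 2.2e-06), 5.65-fold and 4.60-fold.

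The 3 overlapping Tpm3 probes fell in both comparisons. ILMN_2426966 read 7.39, 7.93, 8.86 and 8.63 in Sham+Saline, 7.22, 6.66, 6.43 and 6.93 in Sham+CDTX, 7.39, 8.81, 8.56 and 8.22 in SCI+Saline, and 5.75, 5.40 and 5.64 in SCI+CDTX. SCI+CDTX arrays were clearly apart from SCI+Saline, while Sham+CDTX 1 lay just under Sham+Saline 1. Before normalization the sham groups overlapped on this probe, at raw intensities of 169.5 to 400 in Sham+Saline and 200.5 to 254.1 in Sham+CDTX. Across the 3 probes the fold change was -1.39 to -1.50 in sham and -2.61 to -2.65 in SCI mice, with adjusted p of at most 0.0055. With SCI+CDTX 2 included, the value in SCI mice was -1.81 for ILMN_2426966 and -1.77 and -1.76 for the other Tpm3 probes of the site. Since they read 1 site, they are 1 measurement repeated and not 3 members. With all 16 arrays the sham call of ILMN_2426966 (adjusted p = 0.054) and of ILMN_2426967 (adjusted p = 0.080) was lost, and median scaling ended all 3 sham calls.

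**Figure D2:**
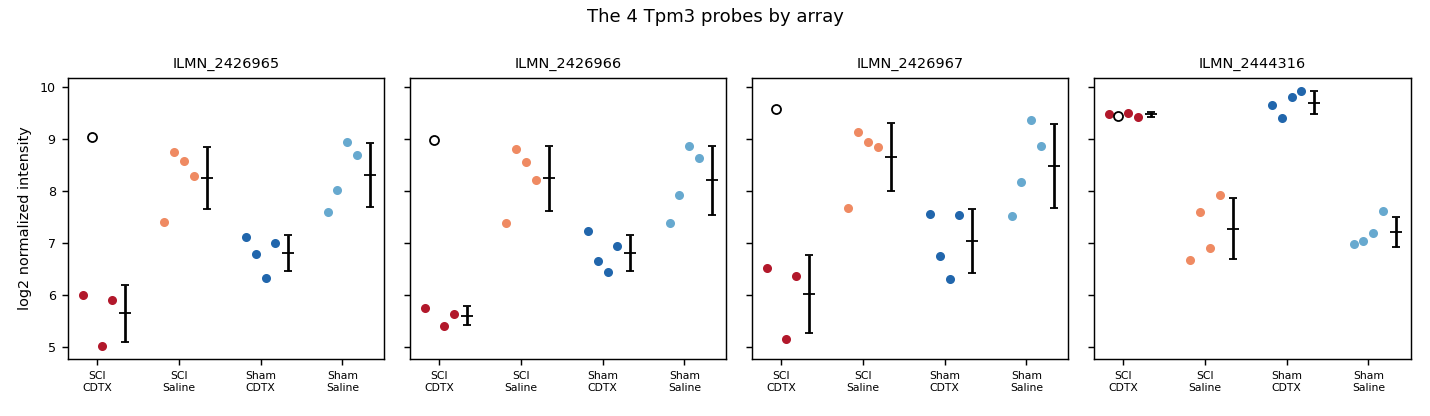
Log2 normalized intensity (y axis) of each Tpm3 probe by group (x axis), with 1 point per array, bars for mean and SD, and an open circle for SCI+CDTX 2. The 3 overlapping probes are lower after CDTX and ILMN_2444316 is higher, and SCI+CDTX 2 lies at 8.97 to 9.58 on the overlapping probes, near the saline arrays.

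Myoz2 encodes calsarcin-1, a Z-disc protein of slow and heart muscle that binds calcineurin (chromosome 3, 3qG1). It read 10.37, 10.30, 10.71 and 10.86 in Sham+Saline against 8.06, 7.92, 7.96 and 8.28 in Sham+CDTX. In SCI mice it read 9.20, 9.99, 9.63 and 9.56 after saline and 8.13, 7.68 and 8.16 after CDTX. Both CDTX groups lay in the same range, below both saline groups. Myoz2 fell, with fold changes of -2.50 ± 0.18 in sham (adjusted p = 6.1e-09) and -1.60 ± 0.19 in SCI mice (adjusted p = 4.9e-06).

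The calcium-handling members changed less, and not alike. Casq2, the cardiac and slow fibre calsequestrin that stores calcium in the reticulum (chromosome 3, 3qF2.2), read 8.08, 7.84, 7.54 and 7.98 in Sham+Saline and 7.15, 6.49, 6.84 and 6.40 in Sham+CDTX. It read 5.62, 6.49, 5.53 and 6.41 in SCI+Saline and 5.90, 5.64 and 6.20 in SCI+CDTX. The SCI groups overlapped and the sham groups did not. Casq2 fell by 1.14 ± 0.23 in sham mice (adjusted p = 3.5e-04), and in SCI mice its fold change was -0.10 ± 0.24 (adjusted p = 0.77). The sham call was lost under median scaling and with the probe difference score, and over all alternatives the value ran from -1.29 to -0.33. Before normalization the sham groups overlapped, at raw intensities of 197.8 to 269.9 in Sham+Saline and 191.6 to 247.1 in Sham+CDTX.

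Atp2a2 encodes SERCA2, the calcium pump of slow fibres and heart, also made in other cells (chromosome 5, 5qF). ILMN_1239742 read 10.57, 10.76, 12.15 and 11.75 in Sham+Saline, 10.48, 10.40, 10.27 and 10.54 in Sham+CDTX, 10.08, 10.14, 11.09 and 11.02 in SCI+Saline, and 10.23, 9.99 and 10.45 in SCI+CDTX. ILMN_1245425 read 10.51, 10.75, 12.07 and 11.68, then 11.15, 10.90, 11.02 and 11.06, then 10.27, 10.41, 10.72 and 10.89, and then 9.99, 9.88 and 10.02 in the same order. On both probes Sham+Saline 3 and 4 lay about 1 log2 unit above Sham+Saline 1 and 2. In sham mice ILMN_1239742 fell by 0.88 ± 0.29 (adjusted p = 0.018), a call lost without Sham+Saline 3 (-0.60, adjusted p = 0.081) or Sham+Saline 4 (-0.73, adjusted p = 0.058), and ILMN_1245425 differed by -0.22 ± 0.25 (adjusted p = 0.50). Neither passed in SCI mice, at -0.36 ± 0.32 (adjusted p = 0.39) and -0.61 ± 0.27 (adjusted p = 0.079).

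Whether the CDTX effect differed between SCI and sham mice was tested as an interaction, the effect in SCI mice minus that in sham mice, which passed for 23.6% of all probes. Of the 14 member probes 3 passed. Casq2 (1.04 ± 0.33, adjusted p = 0.028) and Myoz2 (0.90 ± 0.26, adjusted p = 0.018) had a less negative CDTX effect in SCI mice, where Casq2 itself was not called, and the effect on Tpm3 ILMN_2426966 (-1.26 ± 0.44, adjusted p = 0.046) was more negative. The other probes of the same Tpm3 site gave -1.11 and -1.20 with adjusted p of 0.086 and 0.15. The Myl2 value was -0.76 ± 0.47 (adjusted p = 0.27), so its larger fall in SCI mice did not pass. These calls changed with single arrays: without SCI+CDTX 4 none of the members passed in limma and 5 had an unadjusted p under 0.05, and 1 passed without SCI+Saline 3, Sham+CDTX 2, Sham+CDTX 4 or Sham+Saline 1. Median scaling, which moved the median of all probes to -0.24 here, gave 3 calls, all of them Tpm3 probes and negative, and Casq2 and Myoz2 did not pass. The shares of all probes called in these other fits are not given here, so the counts are not read against them. The interaction also spans both slides. Casq2 was detected but dim in SCI mice, at raw intensities of 125.9 to 170.6 in SCI+Saline and 144.6 to 171.9 in SCI+CDTX. A fall there could be cut short by background, which was not tested.

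SCI without CDTX went with lower levels of part of these genes. Between SCI+Saline and Sham+Saline, 6 of 14 member probes fell and none rose, with a median of -0.66, where 29.5% of all probes passed, 14.6% lower. Under median scaling 3 members fell and none rose, and the share of all probes called under that scaling is not given here. Only Casq2, Myh7 and Myoz2 had groups that did not overlap, all lower after SCI, against 23.5% of all probes, 11.9% lower. Before normalization Myh7 overlapped, at raw intensities of 110.5 to 130.1 in SCI+Saline and 114.6 to 201.3 in Sham+Saline. Myoz2 overlapped too, at 653 to 1150.2 and 849.2 to 1662. The fold changes were -1.85 ± 0.23 for Casq2 (3.60-fold, adjusted p = 6.5e-06), -1.42 ± 0.24 for Myh7 (adjusted p = 1.9e-04), -1.40 ± 0.32 for Myl2 (adjusted p = 0.0025) and -0.96 ± 0.18 for Myoz2 (adjusted p = 4.6e-04). Myl3 (-0.64 ± 0.24, adjusted p = 0.048) and Atp2a2 ILMN_1245425 (-0.68 ± 0.25, adjusted p = 0.049) passed by little, and each kept its call in 7 of 26 alternatives. Both were lost, for example, without Sham+Saline 3 (Myl3 -0.55, adjusted p = 0.12, and Atp2a2 -0.41, adjusted p = 0.19) or SCI+Saline 1 (Myl3 -0.38, adjusted p = 0.19, and Atp2a2 -0.57, adjusted p = 0.13). The 3 slow troponin genes gave -0.31 to -0.68 and the Tpm3 probes -0.06 to 0.17, none past the threshold. Without SCI+Saline 2, the highest array of its group for these genes, Tnni1 (-0.86, adjusted p = 0.017) and Tnnc1 (-0.99, adjusted p = 0.0056) passed.

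Between SCI+CDTX and Sham+CDTX, 7 of 14 member probes fell and none rose, with a median of -0.76, where 29.8% of all probes passed, 14.9% lower. The fold change was -2.16 ± 0.34 for Myl2 (4.48-fold, adjusted p = 1.1e-04), -1.13 ± 0.30 for Tnnc1 (adjusted p = 0.0084) and -1.07 ± 0.27 for Atp2a2 ILMN_1245425 (adjusted p = 0.0058). It was -0.81 ± 0.24 for Casq2 (adjusted p = 0.017), -0.72 ± 0.26 for Myh7 (adjusted p = 0.040), which was above background on 1 of the 3 SCI+CDTX arrays, so that its size is uncertain, and -1.17 ± 0.33 and -1.21 ± 0.32 for Tpm3 ILMN_2426965 and ILMN_2426966 (adjusted p = 0.013 and 0.0080). Tnnt1 (-0.01 ± 0.27), Myoz2 (-0.07 ± 0.19), Tnni1 (-0.25 ± 0.31) and Myl3 (-0.34 ± 0.26) were not called. By the brightest probe per gene, 5 of 10 genes fell and none rose, with Tpm3 read by ILMN_2444316. Groups did not overlap for 8 probes, against 42.6% of all probes (20.6% lower). Without SCI+CDTX 3 the count of member probes called was 4. The calls of Casq2 (-0.67, adjusted p = 0.092), Myh7 (-0.67, adjusted p = 0.12) and Tpm3 ILMN_2426965 (-0.85, adjusted p = 0.10) were then lost. Without Sham+CDTX 1 Casq2 was lost too (-0.66, adjusted p = 0.056), and Myh7 lost its call without any 1 array of either group (adjusted p = 0.051 to 0.14).

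This comparison also rests on which SCI+CDTX arrays are used. With SCI+CDTX 2 included, 2 of the 14 member probes passed, Myl2 and Casq2, but 7 passed when arrays were also weighted by their variance. The shares of all probes called in these 2 fits are not given here, so the counts are not read against them. With the probe difference score as a covariate over the 16 arrays, 1 passed, Tpm3 ILMN_2426966, and it was higher in SCI+CDTX (2.33, adjusted p = 0.046), while 1.99% of all probes passed. In that fit Myl2 gave 0.22, Myh7 0.85, Tnnc1 0.81, Atp2a2 ILMN_1245425 0.81 and Tpm3 ILMN_2426965 2.34, none of them called, so the sign of each turned, and Casq2 gave -1.16 (adjusted p = 0.16). SCI+CDTX 2 is the only array on which the score and the group part, so the values with the score rest on that array. For CDTX against saline the same fit called 12 member probes in sham and 12 in SCI mice. The shares of all probes called in those 2 comparisons are not given here, so these counts are not read against them. The sizes moved: by the brightest probe per gene, the median of the 10 members went from -1.65 to -3.46 in sham and from -1.39 to -1.53 in SCI mice. 

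**Figure D3:**
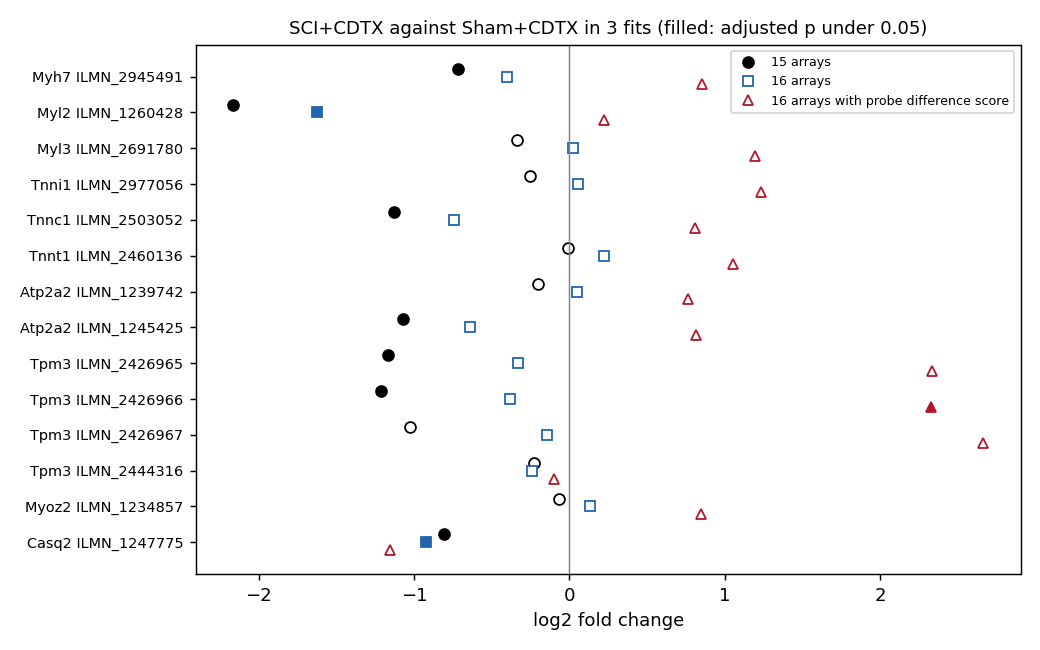
Log2 fold change of SCI+CDTX over Sham+CDTX (x axis) of each member probe (y axis) in the fit of 15 arrays, of 16 arrays, and of 16 arrays with the probe difference score, with filled marks for adjusted p under 0.05. With the score, 12 of the 14 probes lie above 0, where the fit of 15 arrays puts all 14 below 0.

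In order of mean level, 9 of the 14 probes ran Sham+Saline, SCI+Saline, Sham+CDTX, SCI+CDTX from high to low: Myh7, Myl2, Myl3, the 3 slow troponins, Atp2a2 ILMN_1239742, Tpm3 ILMN_2426965 and Myoz2. For Casq2 and Atp2a2 ILMN_1245425, Sham+CDTX ranked above SCI+Saline. Of the 14 probes, 8 did not differ past the threshold between the saline groups and 7 not between the CDTX groups. The share of all probes with this order was not counted, so it is not shown to be particular to these genes.

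Most members also varied together between arrays of a group. Casq2 followed the others less, with a Pearson r of -0.09 with Atp2a2 ILMN_1245425, 0.03 with Myh7 and 0.51 with Tnni1. Deviations from the group mean correlated with a median Pearson r of 0.65 among 9 members without Tpm3, by the brightest probe of each, and 0.60 among all 10, over 15 arrays that share slide, position and normalization. Other lists also varied together: the same median was 0.49 among 10 leukocyte markers, 0.41 among 12 genes of muscle fibres in general, 0.38 among 4 embryonic and cardiac sarcomere genes, 0.37 among 5 endothelial and among 3 satellite cell markers, and 0.27 among 6 fibroblast markers. It was 0.17 among 16 other genes of slow sarcomeres and calcium handling, 0.07 among 22 regulators of the slow programme and 0.03 among 4 smooth muscle markers. Among the 10 fast counterparts it was 0.04, but 7 of their probes lie near the top of the measured range, so this value is not comparable. SCI+Saline 1 had all 9 members below its group mean, with a median deviation of -0.51, and SCI+Saline 2 had 8 of 9 above, with 0.46. In Sham+Saline, arrays 1 and 2 lay at -0.53 and -0.16 with 1 and 0 members above the mean, and arrays 3 and 4 at 0.39 and 0.30 with 8 members each above. Casq2 ran the other way on arrays 1 (0.22) and 3 (-0.32). Mean raw intensity was 238.8 and 230.5 on arrays 1 and 2, and 257.1 and 277 on arrays 3 and 4. Its part was not tested. 

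**Figure D4:**
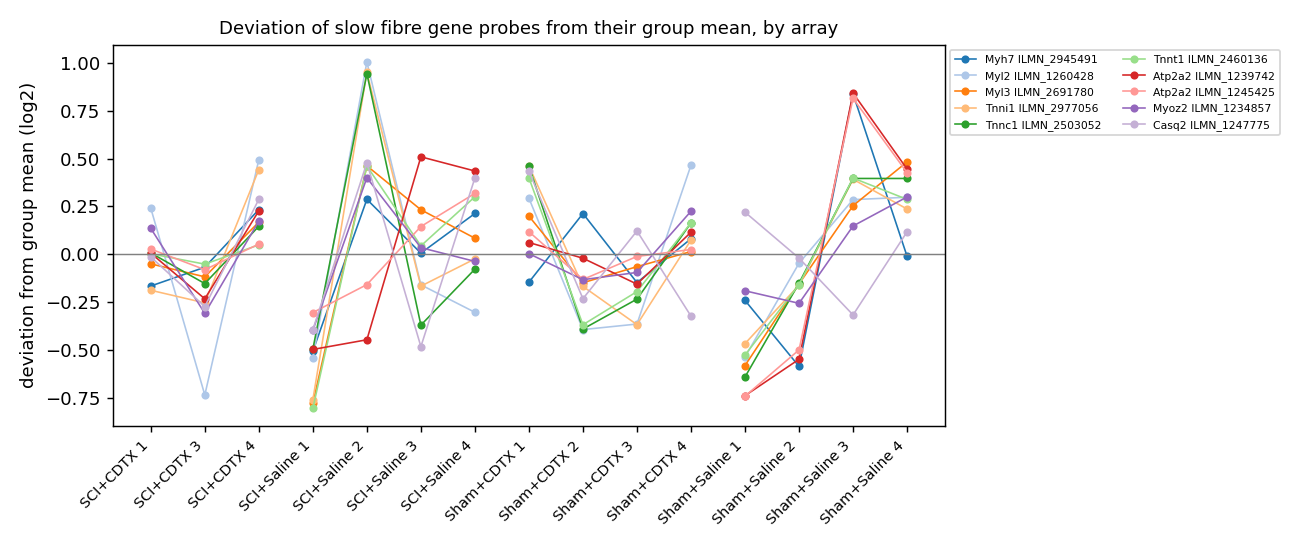
Deviation of each member probe other than Tpm3 from its group mean (y axis, log2) on each of the 15 arrays (x axis), with lines joining arrays of a group only to follow a probe. The lines of most members run together, low on SCI+Saline 1 and Sham+Saline 1 and high on SCI+Saline 2, Sham+Saline 3 and Sham+Saline 4.

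The fast fibre counterparts mostly did not pass the test in the CDTX comparisons. Of the 10 genes paired with the members as their fast or general form, 7 were not called in sham mice (median fold change -0.07) and 7 in SCI mice (median 0.06). The slow gene's fold change was below that of its counterpart in 8 of 10 pairs in each. Myh4, the fast type IIb myosin heavy chain, read 13.70 to 13.86 in Sham+Saline and 14.03 to 14.23 in Sham+CDTX, a rise of 0.35 ± 0.13 (adjusted p = 0.036). Mylpf, Myl1, Tnni2, Tnnc2, Tnnt3 and Atp2a1, the fast light chains, troponins and calcium pump, gave -0.18 to 0.33 in the CDTX comparisons without a call. The probes of these 7 genes had raw intensities of up to 21761 where the brightest probe of an array read 19351 to 24249, so they lie near the top of the measured range. The highest raw intensity of a member was 8970.

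The remaining counterparts are dimmer and did change. Casq1, the fast fibre calsequestrin, fell, with fold changes of -1.60 ± 0.25 in sham (adjusted p = 2.8e-05) and -0.74 ± 0.27 in SCI mice (adjusted p = 0.030), and of -2.19 ± 0.25 between the saline groups (adjusted p = 2.5e-06). Myoz1, the calsarcin of fast fibres, gave -0.06 ± 0.17 in sham (adjusted p = 0.78), where that of Myoz2 was -2.50, and -1.23 ± 0.18 in SCI mice (adjusted p = 2.8e-05). Tpm1 rose by 1.30 ± 0.17 and 1.05 ± 0.18 (adjusted p = 4.2e-06 and 1.6e-04), as did Tpm3 ILMN_2444316. Tpm1 also encodes smooth muscle and cytoskeletal forms.

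**Figure D5:**
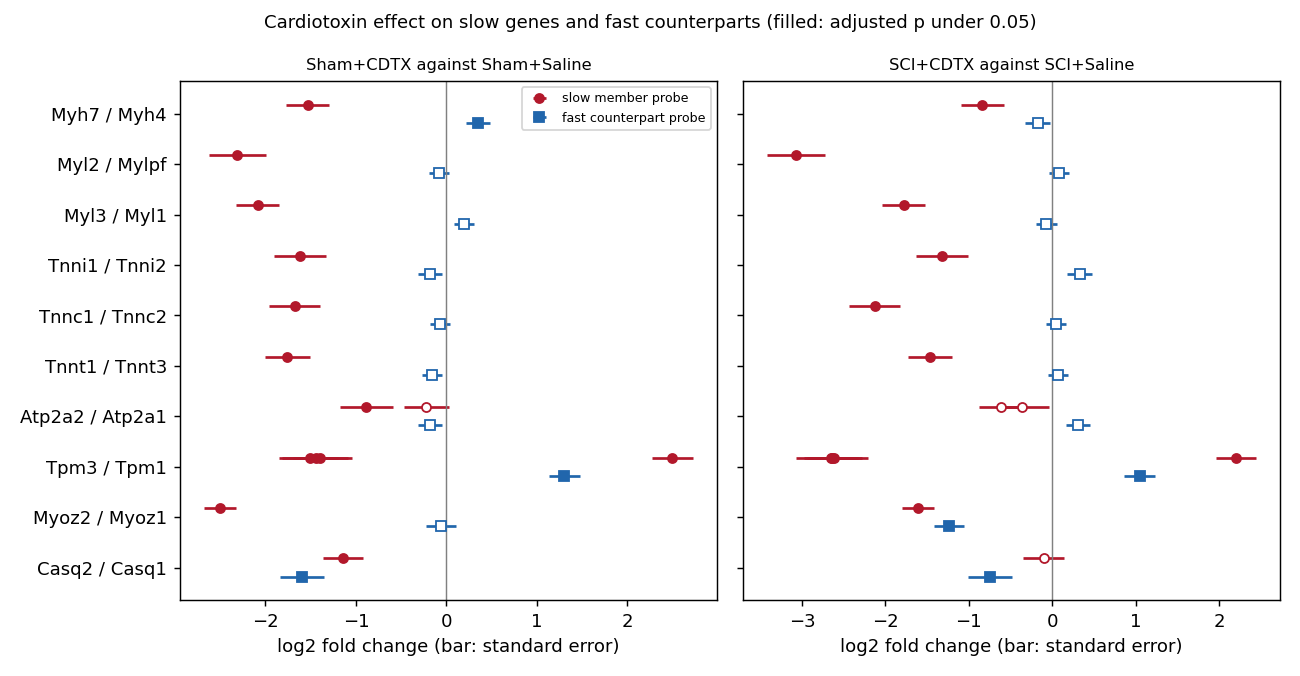
Log2 fold change of CDTX over saline (x axis, bars for standard error) of the member probes (circles) and their fast or general counterparts (squares), by pair (y axis), in sham mice (left) and SCI mice (right), with filled marks for adjusted p under 0.05. The circles lie mostly at -1 to -3 and most squares near 0, apart from the pairs of Tpm3, Myoz2 and Casq2.

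Other genes of slow sarcomeres and their calcium handling, 16 kept of 20 listed, also mostly fell with CDTX: 11 fell and 1 rose in sham mice (median -0.98), and 11 fell and 2 rose in SCI mice (median -0.76). The share of all probes that fell was 25.8% in sham and 22.5% in SCI mice. Mybpc1, the slow myosin-binding protein C, fell, with fold changes of -1.95 ± 0.17 in sham (adjusted p = 5.6e-08) and -0.63 ± 0.18 in SCI mice (adjusted p = 0.010), with an interaction of 1.32 ± 0.25 (adjusted p = 8.9e-04). Those of the myoglobin gene Mb were -0.75 ± 0.15 (adjusted p = 4.2e-04) and -1.28 ± 0.16 (adjusted p = 8.4e-06). These are values of the brightest probe, of 3 kept for Mybpc1 and 2 for Mb. Of the 16 genes, 5 passed the interaction higher and 2 lower, where 23.6% of all probes passed. The counts were 4 and 0 with all 16 arrays, and 0 with the probe difference score. The shares of all probes in those 2 fits are not given here. Between the saline groups 6 fell and 3 rose, where 14.6% of all probes were lower and 14.8% higher. But 4 fell and 4 rose under median scaling and also with each slide normalized separately. The 3 that rose in the main fit were Sln (2.33 ± 0.34, adjusted p = 4.8e-05), which encodes the SERCA inhibitor sarcolipin, the small heat shock gene Hspb7 (2.31 ± 0.21, adjusted p = 1.8e-07) and the titin-binding stress gene Ankrd2 (1.09 ± 0.26, adjusted p = 0.0036). Hrc, a calcium-binding protein of the reticulum, fell there by 1.44 ± 0.16 (adjusted p = 2.0e-06).

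Among genes known to drive the slow programme (calcineurin and NFAT, MEF2, PGC-1 and their partners), 22 kept of 31 listed, 8 fell and 1 rose with CDTX in sham mice, and 11 fell and 1 rose in SCI mice, where 48.9% and 42.9% of all probes passed. The lean to falls in sham mice depended on the scaling: under median scaling 3 fell and 3 rose, and the median turned from -0.18 to 0.15. Between the saline groups 11 fell and 3 rose, where 29.5% of all probes passed, and under median scaling 6 fell and 3 rose. Ppargc1a, the PGC-1alpha coactivator, gave -0.95 ± 0.22 with CDTX in sham mice (adjusted p = 0.0014) and -0.98 ± 0.22 between the saline groups (adjusted p = 0.0021). Mef2c, a MEF2 factor, gave -1.85 ± 0.30 with CDTX in SCI mice (adjusted p = 7.7e-05) and -0.16 ± 0.28 in sham mice (adjusted p = 0.67), an interaction of -1.69 ± 0.41 (adjusted p = 0.0052). Nfatc1, a calcineurin-activated factor, gave -1.64 ± 0.16 in sham mice (adjusted p = 1.4e-07) and 0.01 ± 0.17 in SCI mice (adjusted p = 0.96), an interaction of 1.66 ± 0.23 (adjusted p = 7.9e-05). In this list 4 passed the interaction higher and 6 lower, where 23.6% of all probes passed. The counts were 2 and 1 with all 16 arrays, and 0 with the probe difference score, fits whose shares of all probes are not given here. Values are for the brightest probe of each gene, of 6 kept for Nfatc1 and 3 for Mef2c, and the others are not given here. The slow fibre repressor Sox6 and the slow programme factor Prox1 were detected on at most 1 and 0 arrays.

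Markers of other cells differed between CDTX and saline as well, where 48.9% of all probes passed in sham and 42.9% in SCI mice. Of 10 leukocyte markers kept of 11 listed, 7 rose in sham and 8 in SCI mice and none fell, and their summed normalized intensity was 864 to 10953 in Sham+Saline, 2655 to 15008 in SCI+Saline, 12536 to 15070 in Sham+CDTX and 13560 to 20691 in SCI+CDTX. Sham+Saline 4 and SCI+Saline 4 were the high saline arrays. Of 6 fibroblast and progenitor markers, 6 rose in sham and 4 in SCI mice. Their summed intensity was 5998 to 13131 in Sham+Saline and 6606 to 10488 in SCI+Saline, against 15462 to 18478 in Sham+CDTX and 8816 to 10575 in SCI+CDTX.

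Of 12 genes of muscle fibres in general kept of 20 listed, 5 fell and none rose in sham mice (median -0.28) and 7 fell and none rose in SCI mice (median -0.52). Their summed intensity was 90417 to 104543 in Sham+Saline, 73994 to 91032 in SCI+Saline, 77399 to 94570 in Sham+CDTX and 60480 to 82555 in SCI+CDTX. Myot, a Z-disc protein, gave -1.81 ± 0.26 in sham (adjusted p = 1.4e-05) and -1.29 ± 0.28 in SCI mice (adjusted p = 0.0012), and the caveolin gene Cav3 gave -1.03 ± 0.18 (adjusted p = 1.1e-04) and -0.95 ± 0.19 (adjusted p = 7.0e-04). Pygm, muscle glycogen phosphorylase, gave -1.33 ± 0.26 in sham mice (adjusted p = 3.0e-04), and Ldb3, another Z-disc gene, -1.57 ± 0.27 in SCI mice (adjusted p = 1.4e-04). These values lie in the range of the slow members. Acta1, Ckm and Des were not called in either, at -0.15 to 0.16. The probes of Acta1, Ckm and Des were detected on all 16 arrays. How near they lie to the top of the measured range was not examined here. Their flat values are therefore not set against those of the slow members. The part of these cell and fibre markers in the fall of the slow genes was not tested.

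Endothelial and smooth muscle markers were also measured. Of 5 endothelial markers, 3 fell and none rose with CDTX in sham mice, and 2 rose and none fell in SCI mice, with summed intensities of 944 to 1113, 475 to 706, 645 to 706 and 867 to 1022 in Sham+Saline, SCI+Saline, Sham+CDTX and SCI+CDTX. Under median scaling 2 of the 5 rose and 1 fell in sham mice, and their median turned from -0.39 to 0.40. Of 4 smooth muscle markers kept of 5, 2 fell in sham (0 under median scaling, where their median turned from -0.40 to 0.13) and 1 rose in SCI mice, with sums of 3966 to 4303, 2349 to 3089, 2793 to 3098 and 3015 to 4555. Of 6 satellite cell and myoblast markers, 3 were kept, and Pax7 and Myf5 were detected on 0 arrays. Of those 3, 2 rose with CDTX in sham mice and 1 fell in SCI mice, with sums of 131 to 234, 1056 to 1323, 433 to 610 and 674 to 726. Of 10 embryonic and cardiac sarcomere genes, 4 were kept. The heart markers Nppa and Myl7 were detected on 0 and 1 arrays, while the 4 kept were Myh6, Actc1, Myh8 and Myl4. Of these, 2 fell and none rose with CDTX in sham mice, and 2 fell and 1 rose in SCI mice. Myh6, the alpha-cardiac myosin heavy chain, gave -1.40 ± 0.26 in sham (adjusted p = 2.0e-04) and -1.12 ± 0.28 in SCI mice (adjusted p = 0.0034). Myh8, the perinatal myosin heavy chain, gave -0.90 ± 0.33 in sham (adjusted p = 0.032) and 1.04 ± 0.36 in SCI mice (adjusted p = 0.025), an interaction of 1.94 ± 0.49 (adjusted p = 0.0074). With all 16 arrays, 0 of these 4 genes rose in SCI mice and 0 passed the interaction. Without background correction 0 rose in SCI mice, and with the probe difference score 0 passed the interaction. Actc1, cardiac actin, gave -1.20 ± 0.22 in SCI mice (adjusted p = 2.9e-04).

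The probes whose levels over the 15 arrays were most like that of Myl2 belonged to Yipf7 (Pearson r = 0.98), Atg10 (0.96), Lrtm1 (0.96), Mdh2 (0.95) and Art3 (0.95). Those most like Myh7 belonged to Lgalsl (0.95), Zfp672 (0.95), Epm2a (0.94), P2ry1 (0.93) and Ctnna3 (0.92). These are descriptions over arrays that share the group differences. With group means removed, r was 0.77 for Yipf7 and 0.74 for Lgalsl.

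In the authors' deposited table, which sets each group against SCI+CDTX, 12 of the 14 member probes had a difference p under 0.05 against Sham+Saline, 11 lower and 1 higher in SCI+CDTX, where 24.4% of all probes did. In the authors' deposited table the count was 10 against SCI+Saline (9 lower, 1 higher, with 18.8% of all probes) and 7 against Sham+CDTX (all lower, with 16.3%). For Myl2 the authors' deposited table gives a mean intensity of 6101.4 for Sham+Saline, 2563.3 for SCI+Saline, 1181.9 for Sham+CDTX and 290.9 for SCI+CDTX.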

How the data were processed

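The deposited table gives mean bead intensity per probe and array with no normalization or background subtraction, per the file headers, and a detection p-value beside each intensity. The submitters' processing notes name GenomeStudio version 2011.1. The authors' deposited final values are group means of intensity that, per the file headers, were background-subtracted and scaled by average normalization, and a difference p-value, whose correction for multiple tests is not given in the sources used here.

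Here, limma (version 3.58.1, R 4.3.3) was used on 15 arrays, without SCI+CDTX 2. Its neqc function subtracted background estimated from the detection p-values, added an offset of 16, normalized by quantiles and took log2. A probe stayed in if 3 or more arrays had a detection p below 0.05. Group means were modelled for every probe that stayed in (lmFit, contrasts.fit, eBayes), with Benjamini-Hochberg adjustment, after the steps were tested on simulated data. The array number limits the precision, and the only batches named are the slides. The build behind the array annotation is not given in the sources used here, so array chromosomes and bands carry no positions. Symbols were updated through Entrez identifiers for 23681 probes, of which 4172 changed.

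Named genes are every member probe, the brightest probe of each fast counterpart, the called genes of each other list with the 3 largest fold changes in a comparison (of which some are printed), and the 5 most correlated with Myl2 and with Myh7. Acta1, Ckm, Des, Sox6, Prox1, Nppa, Myl7, Pax7 and Myf5 were named after their values were seen. Genes of the other lists are given by their brightest kept probe. Members and lists were chosen with earlier results of these data known. Alternatives covered the arrays used, normalization, background, filters, the variance model, the replicate number and each array left out.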

Additional observations from a re-analysis of the deposited data

Results flagged for a closer look

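On SCI+CDTX 2, the array the authors left out, 3 of the 14 member probes lay far from the rest of the group when all 16 arrays were normalized together. Tnnt1 read 11.12 against 10.15 to 10.25 on the other SCI+CDTX arrays, Atp2a2 ILMN_1245425 read 11.68 against 9.91 to 10.04, and Tpm3 ILMN_2426966 read 8.97 against 5.43 to 5.79. In 56 sets of 4 arrays tested by Dixon's criterion, 3 stood apart, where chance alone gives about 1 in 20. The same array carries a probe difference score like that of Sham+CDTX, whose part in these values was not tested.

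By limma's interaction term the CDTX effect in SCI mice minus that in sham mice passed for Casq2 (1.04), Myoz2 (0.90) and Tpm3 ILMN_2426966 (-1.26), on the log2 scale. These are 3 of 14 member probes, where 23.6% of all probes passed. Of the members, 0 passed without SCI+CDTX 4 (5 at an unadjusted p under 0.05 in limma) and 1 with all 16 arrays, and the value of Tpm3 ILMN_2426966 turned to 2.67 with the probe difference score. The shares of all probes called in those fits are not given here.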

How the results depend on the processing

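With 1 array left out, the number of the 14 member probes called was 10 to 12 in SCI mice (11 with all 15 arrays) and 12 to 13 in sham mice (13). It was 4 to 7 between SCI+CDTX and Sham+CDTX (7), 4 to 8 between the saline groups (6) and 0 to 4 for the interaction (3), where the 0 by limma, without SCI+CDTX 4, stood beside 5 probes with an unadjusted p under 0.05. With all 16 arrays the counts of members were 2 between SCI+CDTX and Sham+CDTX and 1 for the interaction. With the probe difference score the first was 1, and the fold changes turned sign for Atp2a2 ILMN_1245425 (0.81), Myh7 (0.85), Myl2 (0.22), Tnnc1 (0.81), Tpm3 ILMN_2426965 (2.34) and Tpm3 ILMN_2426966 (2.33), and for the interaction of Tpm3 ILMN_2426966 (2.67). Median scaling left 8 members called in the sham CDTX comparison and 3 between the saline groups, as the median of all probes moved to 0.32 and 0.17. Without background correction 4 members were called between SCI+CDTX and Sham+CDTX, and with no detection filter 1 in the interaction. The cause of these changes was not tested, and the shares of all probes called in these fits are not given beside the counts here. Replicate numbers did not pair the arrays: same-number deviations correlated at -0.27 to 0.38 (median -0.02), above 0.1 in 3 of 21 pairs. With the replicate block the member counts were 12, 13, 7, 7 and 2 for SCI CDTX, sham CDTX, SCI+CDTX against Sham+CDTX, the saline groups and the interaction. Signal over background limits Myh7 most, since it was not detected on 2 arrays.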
